A study of Mus musculus with 10 samples.

Results

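Diaphragm lymphatic endothelial cells (D-LEC, 3 libraries) were compared with lymph node blood endothelial cells (LN-BEC, 3 libraries) across all named genes. These 6 libraries are of 10 in all, and lymph node lymphatic endothelial cells (LN-LEC, 4 libraries) were used to place each difference between the other populations. Every population came from C57BL/6 (B6) mice of 6 to 8 weeks, for which the labels name no treatment and no altered allele, and cells of several mice were pooled for each replicate. The lymph nodes were inguinal, axillary, brachial, cervical and mesenteric nodes pooled, so that LN-BEC held the vessels of skin-draining and mesenteric nodes in unknown shares. Diaphragms were dissociated with enzymes in the same way, cells with CD45 were depleted on beads, and CD45-negative CD31-positive cells were sorted by podoplanin (PDPN), with PDPN-positive cells taken as LEC and PDPN-negative cells as BEC. The level of Pdpn, and in part of Pecam1, which encodes CD31, was therefore set by the sort. D-LEC and LN-BEC differ in lineage and in tissue at once, and the part of either in a difference cannot be told apart from these 2 populations alone. Nothing in the labels ties a library to a day or a batch, and the p-values measure the spread between these pools.

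Lymphatic endothelium lines vessels that take up fluid, lipid and immune cells from tissue, and its fate is set by the transcription factor PROX1 and maintained by VEGF-C acting on its receptor VEGFR-3. Diaphragm lymphatics drain fluid from the peritoneal and pleural spaces. Blood endothelium of the lymph node includes capillaries, arterioles and the high endothelial venules (HEV), whose tall cells carry sulfated and fucosylated ligands for L-selectin through which lymphocytes leave the blood. The blood endothelium signals through VEGFR-1 and VEGFR-2 with neuropilin 1 and holds von Willebrand factor.

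The 6 libraries held 23375259 to 37320972 counted fragments, a depth at which 3 counts correspond to 0.0804 to 0.128 CPM. The first and second LN-BEC replicates were alike, with a chi-square per gene of 29.0 against counting error, while LN-BEC replicate 3 differed from them by 342 and 427, and the 3 D-LEC replicates differed from each other by 31.5 to 45.6. Genes typical of salivary gland, a list of 15 written after the values were seen, took 2.93%, 1.84% and 15.6% of the fragments in LN-BEC replicates 1 to 3, at most 0.0373% in D-LEC, and 1.67% to 8.69% in LN-LEC. LN-BEC replicate 3 was over 3 times both other LN-BEC replicates in 175 (11%) of the genes at least 5-fold higher in LN-BEC, in 56 (7.56%) of those at least 5-fold higher in D-LEC and in 543 (3.95%) of all genes outside the former set. Values without this library are given where the call of a gene described here changes or the fold of a called gene moves by over 1.5 times. Levels are counts divided by library size factors and are not scaled for gene length. They are given as mean ± SD of 3 libraries unless each library is listed. Changes are log2 fold changes, D-LEC minus LN-BEC, ± SE from edgeR, so that a positive value is higher in D-LEC. A gene was called at an adjusted p under 0.05. In such bulk samples, fewer cells of a type and less RNA per cell cannot be told apart.

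The contrast ran from lymphatic genes such as Reln and Mmrn1, which were far higher in D-LEC, to HEV genes such as Glycam1 and Madcam1, which were far higher in LN-BEC. Of 15319 genes tested, 7361 (48.1%) were called, 3439 (22.4%) with D-LEC higher and 3922 (25.6%) with LN-BEC higher. A fold of at least 5 was reached by 741 called genes (4.84%) in D-LEC and by 1589 (10.4%) in LN-BEC, so that the strong differences lay on the LN-BEC side more often. Among them, 35 genes higher in D-LEC and 177 in LN-BEC differed by at least 100-fold, with genes that were at 0 in the other population set to the fold that 3 counts per library allow. Genes with few counts there kept their fitted fold. These counts can thus hold genes with a bound under 100-fold, as Npy, fitted at 268-fold with a bound of 41.2-fold. The libraries did not overlap for 729 of the 741 genes and for 1540 of the 1589, beside 4140 genes with every D-LEC library above (27% of all genes tested) and 4449 with every LN-BEC library above (29%). Many of these genes were close to absent on the low side, since 175 of the 741 had at most 3 counts in every LN-BEC library and 613 of the 1589 had at most 3 counts in every D-LEC library. The 741 genes took 9.58% to 10% of the fragments in D-LEC and 0.435% to 0.553% in LN-BEC. The 1589 genes took 0.855% to 0.979% in D-LEC and 21.4%, 21.8% and 30.1% in the LN-BEC replicates. The median log2 fold change over all genes tested was -0.0455.

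**Figure D1:**
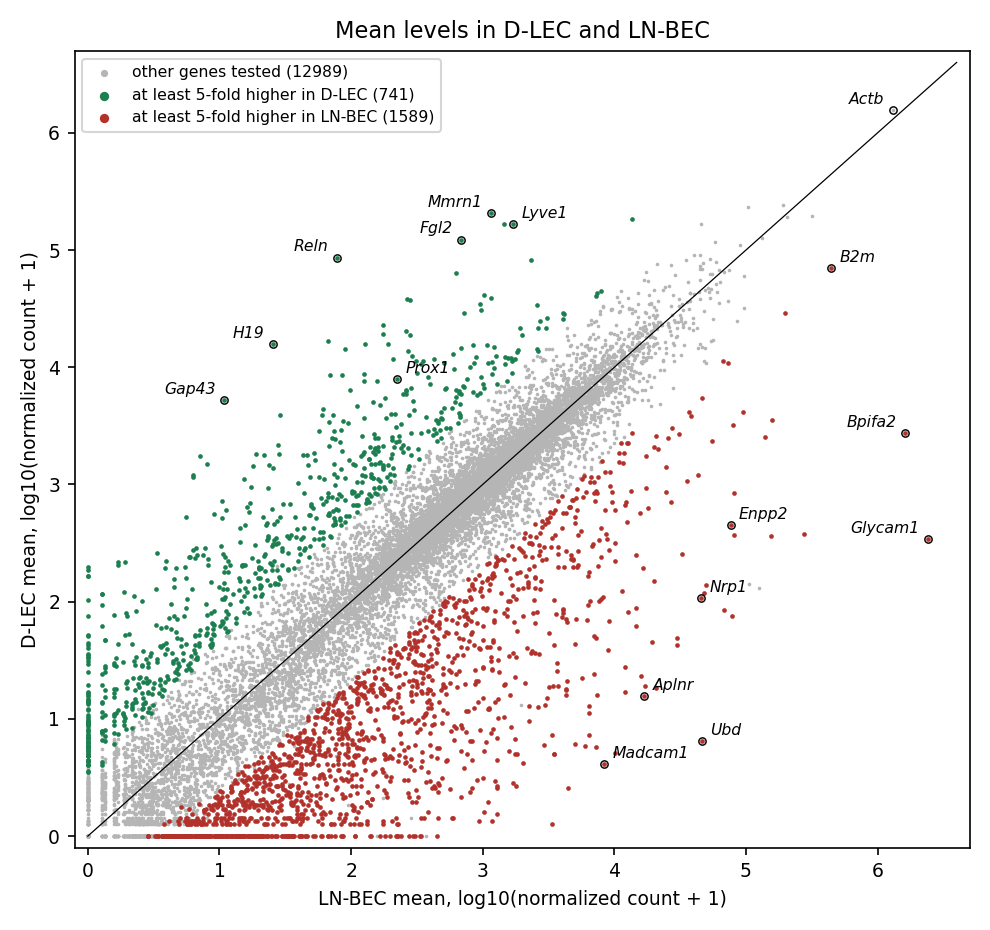
Mean normalized count of each of 15319 genes in LN-BEC (x axis) and D-LEC (y axis), both as log10 of the count plus 1. Green points are the 741 genes at least 5-fold higher in D-LEC and red points the 1589 at least 5-fold higher in LN-BEC, while the line marks equal levels. Reln and Mmrn1 lie far above the line, and Glycam1, Ubd and Madcam1 far below it.

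The markers of each lineage followed the labels. Prox1, the gene of the factor that specifies lymphatic endothelium, stood at 6666, 8777 and 8395 in D-LEC and 208, 115 and 349 in LN-BEC. Lyve1, a hyaluronan receptor of lymphatic capillaries, had levels of 156700, 185600 and 156740 in D-LEC and 883, 643 and 3580 in LN-BEC. Flt4 encodes VEGFR-3 and reached 92999, 78195 and 73646 in D-LEC and 2360, 1926 and 2693 in LN-BEC. For all 3 genes every D-LEC library lay far above every LN-BEC library, with log2 fold changes of 5.15 ± 0.36, 6.61 ± 0.75 (7.76 without LN-BEC replicate 3) and 5.13 ± 0.15. Conversely Flt1, the gene of VEGFR-1, was at 39.1, 57.1 and 86.8 in D-LEC and 14985, 15297 and 13648 in LN-BEC. Nrp1 encodes neuropilin 1, a VEGF co-receptor, and was at 131, 56.1 and 131 in D-LEC and 47090, 44379 and 45414 in LN-BEC. The D-LEC libraries were close to devoid of both, and the log2 fold changes were -7.87 ± 0.30 and -8.75 ± 0.42. Of the 6 genes taken as lymphatic markers (with Pdpn, Reln and Mmrn1) and the 6 taken as blood markers (with Vwf, Notch4, Cd34 and Emcn), none overlapped between the populations, as was so for 27% of all genes tested with D-LEC above and for 29% with LN-BEC above.

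**Figure D2:**
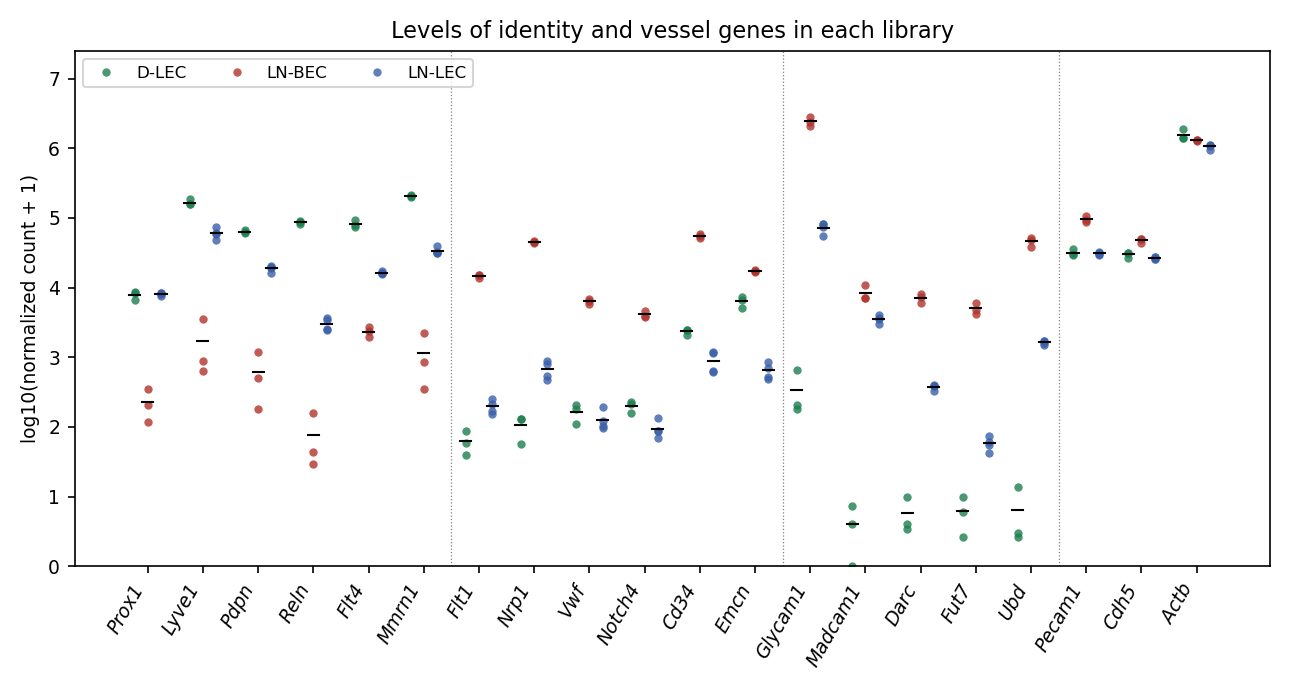
Levels of 20 genes in each library, as log10 of the normalized count plus 1, with D-LEC in green, LN-BEC in red and LN-LEC in blue and a bar at each population's mean. Dotted lines divide lymphatic genes, blood genes, HEV genes with Ubd, which is not of the HEV list, and shared endothelial genes with the housekeeping gene Actb. D-LEC stands above LN-BEC in the lymphatic genes and below it in the blood and HEV genes and Ubd, and the libraries come close for Cdh5 and Actb.

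Lymphatic identity genes were higher in D-LEC in all but 3 cases. Of 23 tested, 20 were called higher in D-LEC (22.4% of all genes tested) and 18 of them by at least 5-fold (4.84%). The median log2 fold change was 4.46 (21 called and a median of 5.24 without LN-BEC replicate 3). Gata2 was the 1 gene called higher in LN-BEC (25.6% of all genes tested). Their summed level was 866000 to 912000 in the D-LEC libraries, 34800 to 47400 in LN-BEC and 321000 to 328000 in LN-LEC. Among the transcription factors, Foxc2, needed for lymphatic valves, was at 13024, 17463 and 13071 in D-LEC and 818, 310 and 924 in LN-BEC, a log2 fold change of 4.41 ± 0.40 (adjusted p = 2.15e-05). Maf differed by 5.07 ± 0.41 and Tbx1 by 5.17 ± 0.53 on the log2 scale, and Nr2f2, which acts with PROX1 and is also a venous factor, by 2.79 ± 0.12. Nfatc1, another valve regulator, had a log2 fold change of 2.17 ± 0.11. All of these genes had D-LEC libraries above every LN-BEC library, and without LN-BEC replicate 3 Maf and Tbx1 differed by 5.66 and 6.19. Sox18 switches on Prox1 in the embryo, and its levels of 10394 ± 1423 in D-LEC and 10872 ± 540 in LN-BEC were not called apart (interval -0.31 to 0.16 on the log2 scale). Gata2 stood at 3509 ± 91.6 in D-LEC and 4798 ± 193 in LN-BEC.

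The secreted and surface proteins of lymphatic cells gave the widest gaps. RELN is a large secreted glycoprotein, and Reln (chr5:21390272-21850523 in mm9, on the minus strand) was at 89280, 82968 and 86316 in D-LEC and 42.9, 28.5 and 159 in LN-BEC. The lowest D-LEC library was over 100-fold above the highest LN-BEC library, and the log2 fold change was 10.16 ± 0.72 (adjusted p = 6.96e-06). Mmrn1 encodes the matrix protein multimerin 1 and was at 199640, 207420 and 211700 in D-LEC and 844, 349 and 2244 in LN-BEC, with a log2 fold change of 7.49 ± 0.73. Nts, the precursor of the peptide neurotensin, was at 14109, 24284 and 17582 in D-LEC and 266, 115 and 459 in LN-BEC (log2 fold change 6.06 ± 0.54). Pdpn, set by the sort itself, was at 67971, 60008 and 62144 in D-LEC and 512, 179 and 1175 in LN-BEC. In each of Lyve1, Mmrn1, Reln and Pdpn, LN-BEC replicate 3 was the highest of the 3, and without it the log2 fold changes were 7.76, 8.42, 11.22 and 7.51 in place of 6.61, 7.49, 10.16 and 6.67. Stab1, a scavenger receptor, was higher by 3.71 ± 0.12, and Itga9, an integrin subunit of lymphatic valves, by 3.01 ± 0.14. The guidance ligands Sema3d and Sema3a were higher by 4.46 ± 0.64 and 4.31 ± 0.56, or by 5.38 and 5.09 without LN-BEC replicate 3. Ccbp2, the decoy receptor for inflammatory CC chemokines, stood at 10161, 9149 and 9982 in D-LEC and 1200, 1338 and 1084 in LN-BEC, with no overlap.

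Blood endothelial genes went the other way, although not as a block. Of 27 tested, 22 were called higher in LN-BEC (25.6% of all genes tested), 16 of them by at least 5-fold (10.4%). Another 2 were called higher in D-LEC (22.4%), and the median log2 fold change was -3.34. The summed level of the list was 542000 to 598000 in LN-BEC, 113000 to 119000 in D-LEC and 89900 to 109000 in LN-LEC. Aplnr, the apelin receptor, was at 13.9, 7.01 and 23.1 in D-LEC and 17513, 16878 and 16287 in LN-BEC (log2 fold change -10.11 ± 0.45). Its ligand gene Apln was at 5.05, 2 and 5.78 in D-LEC and 977, 912 and 1194 in LN-BEC. Esm1, an endothelial proteoglycan of growing vessels, was at 7.57, 7.01 and 4.13 in D-LEC and 3310, 3401 and 3426 in LN-BEC. D-LEC libraries were close to 0 for these 3 genes and each LN-BEC library was over 100-fold above them. The surface markers Ly6a and Ly6c1, which share sequence and may trade reads, were both far higher in LN-BEC. Ly6a was at 373 ± 163 in D-LEC and 80437 ± 7319 in LN-BEC. Ly6c1 was at 47.5 ± 35.8 in D-LEC and 29877 ± 5574 in LN-BEC, a log2 fold change of -9.25 that was -10.10 without D-LEC replicate 3. Sox17, a transcription factor of arterial endothelium, was at 15.1, 18 and 21.5 in D-LEC and 3582, 3729 and 3954 in LN-BEC, and Sparcl1 was lower in D-LEC, with a log2 fold change of -7.01. Vwf, von Willebrand factor, was at 110, 178 and 205 in D-LEC and 6842, 6424 and 5769 in LN-BEC (log2 fold change -5.26 ± 0.30).

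Some genes counted as blood endothelial were abundant in D-LEC as well. Kdr, VEGFR-2, reached 12101 ± 1759 in D-LEC and 17296 ± 1268 in LN-BEC, a log2 fold change of -0.52 ± 0.12. Emcn, the sialomucin endomucin, reached 6346 ± 1142 in D-LEC and 17185 ± 628 in LN-BEC. Cd300lg was lower in D-LEC, with a log2 fold change of -2.55 but still at 11354 there. Gpihbp1, which anchors lipoprotein lipase to the capillary wall, stood at 12817, 10725 and 9366 in D-LEC and 6899, 6113 and 12983 in LN-BEC. Its libraries overlapped and it was not called (adjusted p = 0.383), but without LN-BEC replicate 3 it was called higher in D-LEC (log2 fold change 0.74, adjusted p = 0.00858), while the LN-LEC libraries were at 360, 491, 409 and 607, below all 6. Podxl, podocalyxin, was likewise at 30811 ± 1920 in D-LEC and 33273 ± 1302 in LN-BEC and at 6891 ± 1549 in LN-LEC. Ephb4 and Notch1 were the 2 genes of the list called higher in D-LEC, by 0.49 and 0.83 on the log2 scale.

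The largest differences in favour of D-LEC held several genes with no count at all in LN-BEC. Dleu7 (chr14:62895066-62911816) was at 242, 143 and 204 in D-LEC and at 0 in every LN-BEC library, at least 70.4-fold higher when LN-BEC is set to 3 counts per library. On the same terms Myo18b, a myosin of striated muscle, was at least 66.1-fold higher, Xirp2, an actin-binding protein of striated muscle, at least 58.5-fold, Iqca at least 59.5-fold and Car10, a carbonic anhydrase-related protein, at least 36.3-fold. The values of Myo18b in D-LEC were 206, 186 and 161 and those of Xirp2 117, 165 and 207. Of the skeletal muscle markers, 11 of 12 were called higher in D-LEC (22.4% of all genes tested), among them Acta1 at 476, 535 and 573 and Mb at 136, 208 and 306. The sum of the 12 ran the other way, 1740 to 2590 in D-LEC and 2780 to 3460 in LN-BEC, and the gene of titin was the 1 marker called higher in LN-BEC, while 2 markers were at 0 in every LN-BEC library. The part of muscle transcripts in the levels of Myo18b and Xirp2 was not tested. H19, an imprinted noncoding RNA next to Igf2, stood at 19789, 14722 and 12523 in D-LEC and 31.5, 7.78 and 33.6 in LN-BEC (log2 fold change 9.34 ± 0.42, adjusted p = 7.34e-08). Igf2 itself was at 9142, 11267 and 8738 in D-LEC and 583, 522 and 700 in LN-BEC. No D-LEC library of either gene came near the LN-BEC range. Mesothelium markers moved with them, as 6 of 7 were called higher in D-LEC (22.4% of all genes tested), among them Msln at 371, 103 and 354. Their sum was 1960, 749 and 2260 in D-LEC against 50.2 to 335 in LN-BEC, with none of the 7 at 0 throughout. Their part was not tested.

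Gap43, Scn3a, Apba2 and Npy, genes best known from neurons, were among the leading genes in D-LEC, a grouping made after the values were seen. Gap43, a growth cone protein, was at 5894, 5141 and 4582 in D-LEC and 8.75, 6.05 and 14.7 in LN-BEC (log2 fold change 9.06 ± 0.25, adjusted p = 1.57e-11). Scn3a, a voltage-gated sodium channel subunit (chr2:65295175-65405549), was at 18057, 17631 and 14969 in D-LEC and 93.7, 32.9 and 72.5 in LN-BEC (log2 fold change 7.99 ± 0.37). Apba2, an adaptor that binds the amyloid precursor protein, was at 2018, 1678 and 1587 in D-LEC and 3.5, 8.65 and 6.3 in LN-BEC (log2 fold change 8.13 ± 0.25). For each of the 3 genes the lowest D-LEC library exceeded the highest LN-BEC library by over 100-fold. Npy, neuropeptide Y, was at 90.8, 116 and 138 in D-LEC and 0, 0.865 and 0 in LN-BEC. Of 5 Schwann cell markers, 4 were not called and 1, Sox10, was called higher in LN-BEC (adjusted p = 0.0158, and 0.0617 and 0.0653 without D-LEC replicates 2 and 3), and their summed level was 132 to 278 in D-LEC and 195 to 658 in LN-BEC. The log2 fold change of Sox10 was -5.52, or -3.70 without LN-BEC replicate 3. Nppc, C-type natriuretic peptide, was at 119, 376 and 159 in D-LEC and 0, 0 and 2.1 in LN-BEC. Tmem200c was at 226, 170 and 216 in D-LEC and 0, 0 and 2.1 in LN-BEC. Neither gene had more than 3 counts in any LN-BEC library. With LN-BEC set to 3 counts per library, Nppc and Tmem200c were at least 78.1-fold and 73.2-fold higher in D-LEC. Their fitted log2 fold changes were 8.20 and 8.10. Without LN-BEC replicate 3 these became 10.81 and 10.71, which rest on LN-BEC at 0 and do not measure a larger difference. Ptprv, a receptor tyrosine phosphatase, was at 1646, 930 and 919 in D-LEC and 2.63, 1.73 and 11.6 in LN-BEC. Its log2 fold change was 7.83, or 8.97 without LN-BEC replicate 3. Speer4e was at 137, 99.2 and 108 in D-LEC and 0.875, 0 and 0 in LN-BEC, and it belongs to a family of near-identical copies whose reads could be split or lost.

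Among genes at least 5-fold higher in D-LEC, the highest levels per kilobase were those of Lyve1 at 63807 counts per kb, Apold1 at 56040 and Mmrn1 at 44490. Igfbp5, a binding protein for insulin-like growth factors, was at 169210, 166970 and 160000 in D-LEC and 1707, 820 and 1790 in LN-BEC (log2 fold change 6.84 ± 0.32). Fgl2, a membrane protein that cleaves prothrombin, was at 107430, 125620 and 134230 in D-LEC and 914, 382 and 766 in LN-BEC (log2 fold change 7.47 ± 0.33). Thy1, the surface glycoprotein CD90, was at 45962, 33879 and 34578 in D-LEC and 221, 128 and 445 in LN-BEC (log2 fold change 7.17 ± 0.51, or 7.76 without LN-BEC replicate 3). No library overlapped for any of the 3, and relative to its mean each gene spread more among the LN-BEC libraries than among the D-LEC libraries. The calcium-binding protein S100a6 and the tetraspanin Cd9 were higher by smaller folds, 2.85 ± 0.18 and 2.48 ± 0.14 on the log2 scale, from LN-BEC levels of 4041 and 7271. Fxyd6, a regulator of the sodium pump, was at 26845, 31852 and 34396 in D-LEC and 968, 302 and 1635 in LN-BEC. Apold1, an endothelial gene of the early stress response, was at 164950, 190230 and 196920 in D-LEC and 10466, 10360 and 20217 in LN-BEC.

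The largest differences in favour of LN-BEC were larger still. Ubd (chr17:37330837-37333046), an interferon-inducible ubiquitin-like protein, was at 12.6, 2 and 1.65 in D-LEC and 48256, 51948 and 38894 in LN-BEC, a log2 fold change of -13.23 ± 0.39 (adjusted p = 4.09e-10). Glycam1 (chr15:103393193-103395509), the secreted mucin that presents L-selectin ligands on HEV, was at 647, 178 and 203 in D-LEC and 2399800, 2814500 and 2068100 in LN-BEC (log2 fold change -12.81 ± 0.73). Madcam1 (chr10:79127319-79131281), the ligand of the gut-homing integrin, was at 6.31, 3.01 and 0 in D-LEC and 7198, 10894 and 7039 in LN-BEC (log2 fold change -11.55 ± 0.42). D-LEC replicate 1 was the highest of the 3 in Ubd, Glycam1 and Serpina1e and the lowest LN-BEC library was above it by over 1000-fold each time. Without that replicate the log2 fold changes of Ubd, Glycam1 and Madcam1 were -14.55, -13.63 and -12.46, and that of Madcam1 was -10.84 without D-LEC replicate 3. Serpina1e, of the alpha-1-antitrypsin family, whose copies are near-identical, was at 7.57, 4.01 and 0.826 in D-LEC and 9879, 11940 and 8661 in LN-BEC. Slc14a1, a urea transporter, was at 3.78, 1 and 0 in D-LEC and 4245, 4886 and 4275 in LN-BEC. The gene Oit1 was at 0, 0 and 0.826 in D-LEC and 3409, 3814 and 2830 in LN-BEC. For both the D-LEC libraries held next to nothing. Ndst3, an enzyme of heparan sulfate synthesis, was at 0, 1 and 0 in D-LEC and 1343, 1344 and 838 in LN-BEC. Reg3g, an antibacterial lectin, was at 0 in D-LEC and at 306, 413 and 273 in LN-BEC, at least 107-fold higher. The calcium-binding protein gene Necab2 was at least 98.7-fold higher and Apol7c at least 94.6-fold, both from 0 in D-LEC.

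Several of the leading LN-BEC genes were carried unevenly by the 3 libraries. Prss34 and Mcpt8 are proteases of basophils and Mpo is the peroxidase of neutrophils, and all 3 were at 0 in D-LEC. Prss34 was at 0.875, 630 and 718 in LN-BEC, Mcpt8 at 7, 278 and 429 and Mpo at 14.9, 114 and 692. With D-LEC set to 3 counts per library, Prss34, Mcpt8 and Mpo were at least 146-fold, 77-fold and 88.6-fold higher in LN-BEC. The fitted log2 fold changes of Mcpt8 and Mpo were -10.93 and -11.13, or -10.22 and -9.07 without LN-BEC replicate 3. These fitted values rest on D-LEC at 0 and go beyond the bounds. The calls of Prss34 (adjusted p = 0.0293), Mpo (0.0274) and Mcpt8 (0.012) were lost when only the 6 libraries were fitted, with adjusted p = 0.202 for Prss34. Leaving out LN-BEC replicate 3 or 2 also lost that of Prss34 (adjusted p = 0.0604 and 0.0647), and leaving out any 1 D-LEC library lost those of Prss34 and Mpo. The salivary proline-rich protein gene Prb1 was at 98.9, 82.2 and 839 in LN-BEC and 0 in D-LEC (adjusted p = 0.017, and 0.0966 with only the 6 libraries fitted). With D-LEC set to 3 counts per library, Prb1 was at least 110-fold higher in LN-BEC. Its fitted log2 fold change of -11.44, or -9.56 without LN-BEC replicate 3, rests on D-LEC at 0. Of the 10 genes at least 5-fold higher in LN-BEC with the highest LN-BEC level per kilobase, 4 were salivary as well. Bpifa2 was at 7748, 226 and 236 in D-LEC and 679270, 411920 and 3765500 in LN-BEC. Smr3a was at 129520, 75180 and 625550 in LN-BEC, Pip at 40504, 22638 and 170200 and Dcpp1, of a family of near-identical copies, at 17511, 30767 and 154630. Without LN-BEC replicate 3 their log2 fold changes were -7.66, -8.13, -8.86 and -8.29, in place of -9.23, -9.56, -10.14 and -9.75. Without D-LEC replicate 1, the highest of its population in all 4, they were -12.77, -12.91, -12.91 and -12.63, and that of Dcpp1 was -9.16 without D-LEC replicate 3. Bpifa2 lost its call with only the 6 libraries fitted (adjusted p = 0.0515). Genes of exocrine pancreas, also listed after the values were seen, summed to 221, 1350 and 8670 in the LN-BEC replicates and to 31.1 to 76.8 in D-LEC, and the part of these transcripts in other differences was not tested.

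HEV genes were called higher in LN-BEC without exception among the 14 tested (25.6% of all genes tested). Of them, 12 differed by at least 5-fold (10.4% of all genes tested), and the median log2 fold change was -5.43. The enzymes that build the L-selectin ligand were among them. Fut7, which adds the fucose, was at 8.83, 5.01 and 1.65 in D-LEC and 4855, 6086 and 4232 in LN-BEC (log2 fold change -10.04 ± 0.31). Chst4 and Chst2, which add the sulfate, were lower in D-LEC as well. Chst4 was at 83.1 ± 51.7 in D-LEC and 4067 ± 609 in LN-BEC, and Chst2 at 199 and 7531. Gcnt1, the core 2 branching enzyme, was still at 4116 in D-LEC against 36629 in LN-BEC, and the sialyltransferases St3gal4 and St3gal6 differed least, with log2 fold changes of -0.88 and -1.25. Darc, the chemokine receptor that marks venules, was at 8.83, 3.01 and 2.48 in D-LEC and 6092, 8172 and 7324 in LN-BEC (log2 fold change -10.65 ± 0.25, or -11.31 without D-LEC replicate 1). Enpp2, the enzyme that makes lysophosphatidic acid, was at 530, 369 and 454 in D-LEC and 78439, 81223 and 70022 in LN-BEC (log2 fold change -7.42 ± 0.15). In both genes each LN-BEC library was above every D-LEC library by more than 100-fold. Nkx2-3, a transcription factor needed for Madcam1 expression, was at 0, 0 and 2.48 in D-LEC and 159, 161 and 95.6 in LN-BEC, with counts in no more than 1 of the D-LEC libraries.

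Of 17 genes for leukocyte adhesion, 12 were called higher in LN-BEC (25.6% of all genes tested), 10 of them by at least 5-fold (10.4%), and 3 higher in D-LEC (22.4%). The junctional molecule Jam2 was at 150 ± 47.9 in D-LEC and 19834 ± 928 in LN-BEC. Its relative Jam3 was at 178 ± 23.3 in D-LEC and 6392 ± 248 in LN-BEC. Vcam1 was at 75.7, 52.1 and 113 in D-LEC and 2873, 2225 and 2588 in LN-BEC. No library of these genes overlapped. Selp (P-selectin) was at 30.3, 43.1 and 65.3 in D-LEC and 1357, 1169 and 1046 in LN-BEC. Sele (E-selectin) was at 17.7, 23 and 16.5 in D-LEC and 130, 109 and 124 in LN-BEC. Vcam1 differed by -4.98 ± 0.23 and Selp by -4.65 ± 0.24, while Icam1 differed by -0.99 ± 0.10 only. The 3 genes on the D-LEC side were F11r, Cd47 and Pvrl2, by 0.65, 0.66 and 1.02 on the log2 scale. Platelet markers, which can bring Selp with them, summed to 168 to 323 in D-LEC and 1830 to 2030 in LN-BEC, chiefly Pf4 at 74.4 ± 32.6 in D-LEC and 1528 ± 285 in LN-BEC. Of these markers, 3 of 5 were called higher in LN-BEC (25.6% of all genes tested). The part of platelets in the level of Selp was not tested.

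Antigen presentation genes were higher in LN-BEC in all 20 cases (25.6% of all genes tested), 16 of them by at least 5-fold (10.4%), with a median log2 fold change of -2.84. Class I was abundant in both populations: H2-K1, whose relatives share sequence, was at 29092, 26958 and 30664 in D-LEC and 172670, 194660 and 227510 in LN-BEC. B2m, the light chain, was at 59605, 74523 and 75279 in D-LEC and 427750, 443450 and 458160 in LN-BEC. The D-LEC libraries lay below LN-BEC throughout, with log2 fold changes of -2.78 ± 0.13 and -2.67 ± 0.13. The peptide transporter Tap1 and the immunoproteasome subunits Psmb8 and Psmb9 were lower in D-LEC, with log2 fold changes of -2.60, -2.92 and -2.86, as was Nlrc5, the class I transactivator, with one of -2.73. Of class II, Cd74 was at 84.5, 56.1 and 52.1 in D-LEC and 2252, 2775 and 2393 in LN-BEC. H2-Aa was at 111, 121 and 67.8 in D-LEC and 1337, 1683 and 1651 in LN-BEC. Ciita, the class II transactivator, was at 12.6, 9.02 and 16.5 in D-LEC and 112, 104 and 56.7 in LN-BEC. No class II gene of the list overlapped between the populations (29% of all genes tested had LN-BEC above without overlap). B cell markers, which come with class II genes, were called higher in LN-BEC in 8 of 8 cases (25.6% of all genes tested). They summed to 1060 to 1560 in LN-BEC and to 160 to 178 in D-LEC, with Cd79b at 364 and 9.78 and Pax5 at 0 in every D-LEC library. The call of Pax5 (adjusted p = 0.0468) was lost with any 1 of the 6 libraries left out, with adjusted p of 0.0539 to 0.135. The part of B cells in the class II levels was not tested. Cd274, the ligand PD-L1, was at 638, 962 and 1005 in D-LEC and 10164, 10040 and 8690 in LN-BEC (log2 fold change -3.47 ± 0.19). On the LN-LEC side these genes were close to LN-BEC, with H2-K1 at 224410 ± 22459 and Cd274 at 11750 ± 1767.

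Among chemokines and chemokine-scavenging receptors, 12 of 19 were called higher in LN-BEC (25.6% of all genes tested) and 5 higher in D-LEC (22.4%), with a median log2 fold change of -2.49 (-2.37 with genes at 0 set to their bound). Cxcl12, which draws CXCR4-bearing cells, was at 1092, 945 and 1168 in D-LEC and 35465, 36076 and 34790 in LN-BEC (log2 fold change -5.06 ± 0.20). Cxcl9, an interferon-induced ligand of CXCR3, was at 10.1, 24 and 26.4 in D-LEC and 3799, 3753 and 5463 in LN-BEC (log2 fold change -7.68 ± 0.73). Cxcl10 and Cxcl16 were lower in D-LEC, with log2 fold changes of -3.54 and -2.49. On the other side stood Ccl2, a chemokine for monocytes, at 588, 937 and 594 in D-LEC and 139, 78.7 and 269 in LN-BEC. Cxcr7, a scavenger of CXCL12, was at 11647, 13811 and 10354 in D-LEC and 1721, 1149 and 1823 in LN-BEC (log2 fold change 2.93 ± 0.28). Hence the ligand Cxcl12 was lower and its scavenger Cxcr7 higher in D-LEC, in all libraries of both genes.

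Growth factors and their receptors divided nearly evenly, with 16 of 38 called higher in D-LEC (22.4% of all genes tested) and 18 in LN-BEC (25.6%). The VEGF receptors were divided too. Flt4 and Nrp2, which bind VEGF-C, were higher in D-LEC by 5.13 ± 0.15 and 1.76 ± 0.10, and Flt1 and Nrp1, which bind VEGF-A, were higher in LN-BEC. Kdr, the gene of VEGFR-2, was abundant in both populations and higher in LN-BEC by under 2-fold. Among the ligands themselves Vegfc was at 88.3, 55.1 and 111 in D-LEC and 1346, 835 and 987 in LN-BEC. Figf, the gene of VEGF-D, was at 421, 541 and 722 in D-LEC and 154, 82.2 and 111 in LN-BEC. Pgf, placental growth factor, was at 1485, 723 and 1125 in D-LEC and 72.7, 46.7 and 63 in LN-BEC. The log2 fold changes were -3.64 for Vegfc, 2.27 for Figf and 4.18 for Pgf, without overlap. The insulin-like growth factor binding proteins were split as well, with Igfbp5 (6.84 ± 0.32), Igfbp4 (1.68 ± 0.17) and Igfbp6 (3.03 ± 0.59) higher in D-LEC and Igfbp7 (-5.76 ± 0.17) and Igfbp3 (-1.30 ± 0.21) higher in LN-BEC. Igfbp7 was among the most abundant genes of LN-BEC at 2846, 1991 and 2844 in D-LEC and 126970, 144510 and 143350 in LN-BEC. Of the TGF-beta family, Tgfb3 was at 3069, 2396 and 2272 in D-LEC and 98, 61.4 and 200 in LN-BEC (log2 fold change 4.44 ± 0.36). Bmp2 was at 20.2, 10 and 6.61 in D-LEC and 406, 330 and 469 in LN-BEC (log2 fold change -5.12 ± 0.30). Hgf, hepatocyte growth factor, was at 125, 254 and 279 in D-LEC and 25.4, 16.4 and 33.6 in LN-BEC. Its receptor gene Met was at 1430, 2076 and 2338 in D-LEC and 4085, 3932 and 3049 in LN-BEC. Ligand and receptor differed in opposite directions without overlap. Pdgfb, which recruits pericytes, was at 370, 395 and 503 in D-LEC and 3907, 4002 and 4134 in LN-BEC. Edn1, the vasoconstrictor endothelin 1, was at 154, 229 and 309 in D-LEC and 1928, 1600 and 1621 in LN-BEC. Both were lower in D-LEC, with log2 fold changes of -3.25 and -2.88.

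Matrix genes were also divided, with 15 of 31 called higher in D-LEC and 11 in LN-BEC, against 22.4% and 25.6% of all genes tested. Laminin alpha chains of the basement membrane lay on opposite sides. Lama4 was at 17284, 17462 and 20214 in D-LEC and 4718, 4240 and 4155 in LN-BEC. Lama5 was at 329, 333 and 369 in D-LEC and 8338, 9866 and 8111 in LN-BEC. The log2 fold changes were 2.06 ± 0.09 and -4.68 ± 0.12, while Lamc1, the shared gamma chain, was at 18658 ± 1310 in D-LEC and 18557 ± 1990 in LN-BEC (interval -0.23 to 0.23). The collagen IV chains Col4a1 and Col4a2 were lower in D-LEC, with log2 fold changes of -1.50 and -1.74, as was Hspg2, perlecan, with one of -2.15. Col18a1, the source of endostatin, was at 8362, 7271 and 7369 in D-LEC and 1438, 1515 and 1593 in LN-BEC. Col15a1, its closest relative, was at 173, 55.1 and 48.8 in D-LEC and 6058, 7118 and 5737 in LN-BEC. Neither gene overlapped, and their log2 fold changes were of opposite sign, 2.33 ± 0.15 and -6.16 ± 0.48, the latter -6.92 without D-LEC replicate 1. The elastic fibre genes Fbn1, Fbln5 and Emilin1 were higher in D-LEC by 2.17, 1.41 and 2.30. Eln, elastin itself, was called higher in D-LEC as well, but the call was lost in several alternatives. These included the fits without D-LEC replicate 1 (log2 fold change 0.21, adjusted p = 0.197), without LN-BEC replicate 3 (0.38, 0.12) and with only the 6 libraries (0.45, 0.0541). Tnxb, tenascin X, was at 3824, 3438 and 4408 in D-LEC and 92.8, 18.2 and 66.2 in LN-BEC (log2 fold change 6.04 ± 0.43). Sparc was at 5863, 2380 and 4102 in D-LEC and 97552, 96669 and 88394 in LN-BEC (log2 fold change -4.53 ± 0.27). Fibroblast markers did not separate the populations, with 6 of 7 not called and sums of 3210 to 10000 in D-LEC and 2970 to 10200 in LN-BEC.

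Of 28 cytoskeletal genes, 11 were called higher in D-LEC (22.4% of all genes tested) and 8 in LN-BEC (25.6%), and 9 were equal within 2-fold (46.2%). Vim (vimentin), Lmna (lamin A) and Tpm4 were higher in D-LEC by 1.57 ± 0.11, 1.75 ± 0.13 and 1.74 ± 0.11. Pdlim3, an actinin-binding protein of muscle Z-discs, was at 1664, 1074 and 1422 in D-LEC and 179, 94.3 and 103 in LN-BEC (log2 fold change 3.46 ± 0.28). Ablim1 was at 2279, 2678 and 3201 in D-LEC and 31936, 30286 and 30462 in LN-BEC (log2 fold change -3.51 ± 0.13). The smooth muscle genes Acta2, Myl9 and Tagln were higher in LN-BEC, with log2 fold changes of -3.36, -4.38 and -2.22. Mural cell markers were higher in LN-BEC too in 6 of 8 cases (25.6% of all genes tested), with Rgs5 at 66.4 ± 32.3 in D-LEC and 4392 ± 304 in LN-BEC. Their sums were 6730 to 8380 in LN-BEC and 1850 to 2120 in D-LEC, and the part of mural cells in the smooth muscle genes and in Notch3 was not tested.

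Notch pathway genes showed both directions, with 7 of 17 called higher in D-LEC (22.4% over all genes) and 9 in LN-BEC (25.6%), and receptors of one family stood on opposite sides. Notch2 was at 27089, 24747 and 24624 in D-LEC and 6071, 5558 and 8259 in LN-BEC (log2 fold change 1.94 ± 0.14). Notch4 was at 227, 158 and 210 in D-LEC and 3796, 3891 and 4666 in LN-BEC (log2 fold change -4.38 ± 0.21). The ligand Dll4 was at 6610 ± 608 in D-LEC and 4608 ± 448 in LN-BEC. Jag1 was at 3663 ± 423 in D-LEC and 4237 ± 374 in LN-BEC. Dll4 was called and Jag1 was not (adjusted p = 0.0013 and 0.22), with intervals of 0.28 to 0.75 and -0.51 to 0.08 on the log2 scale. Jag2 was lower in D-LEC, with a log2 fold change of -3.09, and Mfng, a glycosyltransferase that modifies Notch, was at 29, 22 and 12.4 in D-LEC and 4888, 6014 and 6223 in LN-BEC (log2 fold change -8.13 ± 0.23). Of the target genes, Hes1 was higher in D-LEC by 1.54 ± 0.18 and the log2 fold change of Hey2 was -2.37, whereas Hey1 was within 2-fold at 6542 ± 454 in D-LEC and 5022 ± 111 in LN-BEC.

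The arterial and capillary list was split evenly, 7 of 16 called in each direction, where 22.4% and 25.6% of all genes tested were called. Gja5, connexin 40 of arterial endothelium, was at 0, 1 and 0.826 in D-LEC and 1044, 850 and 1154 in LN-BEC, next to absent from D-LEC. Cxcr4, the receptor of CXCL12, was at 30.3, 17 and 10.7 in D-LEC and 2291, 2220 and 1815 in LN-BEC (log2 fold change -6.84 ± 0.30). Bmx, a kinase of arterial endothelium, was at 2217, 2604 and 3045 in D-LEC and 473, 318 and 472 in LN-BEC (log2 fold change 2.64 ± 0.16). Unc5b, a netrin receptor, was higher in D-LEC by 1.41 ± 0.11.

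Of 44 endothelial transcription factors, 18 were called higher in D-LEC (22.4% of all genes tested) and 20 in LN-BEC (25.6%), with a median log2 fold change of -0.255 that was 0.018 without LN-BEC replicate 3. Besides the lymphatic factors, Foxp2 was at 2870, 4245 and 4264 in D-LEC and 369, 135 and 608 in LN-BEC (log2 fold change 3.36 ± 0.49). Lyl1 was at 1275, 929 and 930 in D-LEC and 99.8, 110 and 151 in LN-BEC (log2 fold change 3.11 ± 0.18). Tal1 and Lmo2 were also higher in D-LEC, by 1.14 and 1.18. On the LN-BEC side Tbx3 was at 13.9, 1 and 6.61 in D-LEC and 1059, 1198 and 1315 in LN-BEC (log2 fold change -7.45 ± 0.63, or -8.16 without D-LEC replicate 1), and Tcf15 was lower in D-LEC, with a log2 fold change of -5.15. Epas1, hypoxia-inducible factor 2 alpha, was at 10774, 11994 and 11112 in D-LEC and 50498, 52175 and 42072 in LN-BEC, and the BMP targets Id1 and Id3 were lower in D-LEC, with log2 fold changes of -1.39 and -1.37. None of these libraries overlapped between the populations.

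Lipid uptake genes were higher in LN-BEC in 11 of 18 cases (25.6% of all genes tested) and higher in D-LEC in 1 (22.4%), with a median log2 fold change of -1.28 (-0.904 without LN-BEC replicate 3). Fabp4, a fatty acid carrier and one of the most abundant LN-BEC genes, was at 2470, 3483 and 4689 in D-LEC and 144620, 111450 and 218390 in LN-BEC (log2 fold change -5.48 ± 0.34). Cd36, a fatty acid translocase, was at 1143, 1067 and 1390 in D-LEC and 39959, 28219 and 60490 in LN-BEC (log2 fold change -5.16 ± 0.30). Scarb1, the receptor for high-density lipoprotein, was at 178, 217 and 180 in D-LEC and 16130, 17098 and 15902 in LN-BEC (log2 fold change -6.42 ± 0.14), and Apoe was lower in D-LEC, with a log2 fold change of -5.25. Vldlr was the gene higher in D-LEC, at 1641, 2115 and 2019 in D-LEC and 675, 714 and 626 in LN-BEC. Adipocyte markers, some of whose cells also hold Fabp4 and Cd36, were called higher in LN-BEC in 5 of 5 cases (25.6% of all genes tested). Without LN-BEC replicate 3 these were 4, as Plin1 lost its call (log2 fold change -3.57 in place of -4.77, adjusted p = 0.152). Its call was also lost by the DESeq2 Wald test (0.0809), by limma-voom (0.0526) and with only the 6 libraries fitted (0.0742). The markers summed to 83.9 to 326 in LN-BEC and at most 6.61 in D-LEC, with Adipoq at 70, 10.4 and 96.6 in LN-BEC. Their part in the lipid genes was not tested.

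Of 20 transporters and channels, 10 were called higher in LN-BEC (25.6% of all genes tested) and 5 higher in D-LEC (22.4%). Car4, carbonic anhydrase 4 of capillaries, was at 8.83, 0 and 3.31 in D-LEC and 3168, 2668 and 4606 in LN-BEC (log2 fold change -9.84 ± 0.51, or -10.82 without D-LEC replicate 1). Abcb1a, the efflux pump P-glycoprotein, was at 47.9, 68.1 and 89.2 in D-LEC and 6505, 5805 and 6152 in LN-BEC (log2 fold change -6.46 ± 0.25). Slc40a1, the iron exporter ferroportin, went the other way at 988, 754 and 1074 in D-LEC and 21, 23.4 and 23.1 in LN-BEC (log2 fold change 5.37 ± 0.23), and Tfrc, the transferrin receptor, was lower in D-LEC, with a log2 fold change of -1.52. Fam38b, the mechanosensitive channel Piezo2, was at 24678, 26424 and 21466 in D-LEC and 7451, 7694 and 5850 in LN-BEC and in LN-LEC at 881, 1019, 737 and 797. Fam38a, Piezo1, was not called, at 350 ± 104 in D-LEC and 488 ± 87.9 in LN-BEC, but was called lower in D-LEC without LN-BEC replicate 3 (log2 fold change -0.63, adjusted p = 0.0207) and without D-LEC replicate 2 (-0.67, adjusted p = 0.0221).

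Junction genes were called higher in LN-BEC in 12 of 20 cases (25.6% of all genes tested), and the 5 called higher in D-LEC and the 10 equal within 2-fold were near the shares over all genes, 22.4% and 46.2%. Cdh5, VE-cadherin, was at 31940, 31317 and 26636 in D-LEC and 50421, 43530 and 49258 in LN-BEC, a log2 fold change of -0.68 ± 0.10 that was called although it stayed under 2-fold. Cldn5, the endothelial claudin, was at 5496, 7793 and 6988 in D-LEC and 1814, 1337 and 2541 in LN-BEC (log2 fold change 1.83 ± 0.23). Esam was at 893, 762 and 999 in D-LEC and 12156, 13225 and 14920 in LN-BEC (log2 fold change -3.93 ± 0.16) and Pcdh17 was lower in D-LEC, with a log2 fold change of -4.07. Gja1, connexin 43, was higher in D-LEC by 0.93 ± 0.17.

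The coagulation and fibrinolysis list had 7 of 17 genes called higher in D-LEC and 6 in LN-BEC, against 22.4% and 25.6% of all genes tested. The plasminogen activator gene Plau was at 1669, 2367 and 1599 in D-LEC and 151, 107 and 182 in LN-BEC (log2 fold change 3.68 ± 0.21), and its receptor Plaur and the tissue-type activator Plat were higher in D-LEC by 2.37 and 1.95. Serpine2, an inhibitor of these proteases and of thrombin, was at 5164, 5876 and 6624 in D-LEC and 783, 677 and 602 in LN-BEC (log2 fold change 3.09 ± 0.14). Activator, receptor and inhibitor thus stood on the same side in all 3 D-LEC libraries. F2rl1, the protease-activated receptor 2, was at 8622, 7214 and 7176 in D-LEC and 138, 136 and 199 in LN-BEC (log2 fold change 5.60 ± 0.18), while F2r, receptor 1, was lower in D-LEC, with a log2 fold change of -1.25. F8, factor VIII, was at 699, 894 and 952 in D-LEC and 6853, 6497 and 7622 in LN-BEC and in LN-LEC at 58290 ± 9206. Thbd, thrombomodulin, was at 46660 ± 4193 in D-LEC and 53826 ± 1370 in LN-BEC and was not called (adjusted p = 0.0857).

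**Figure D3:**
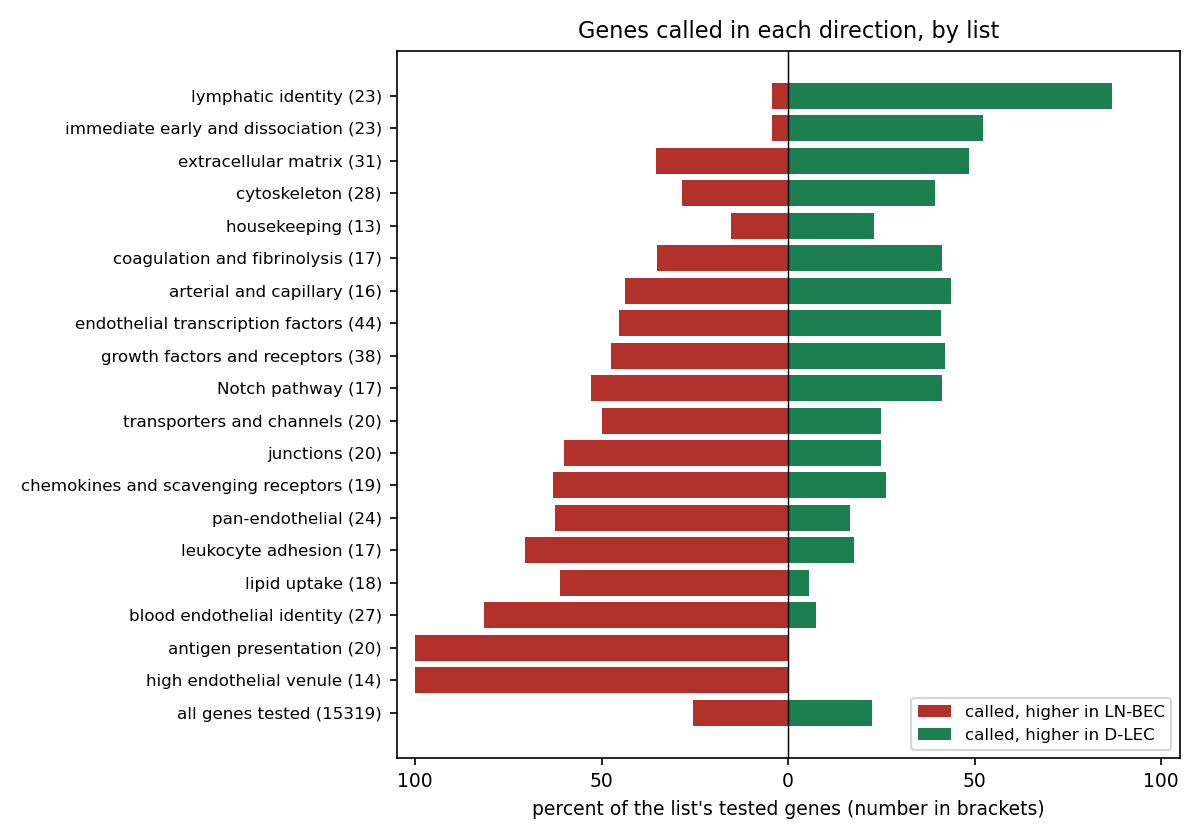
Percent of the tested genes of each list called higher in D-LEC (right, green) and LN-BEC (left, red) at an adjusted p under 0.05, with the number of tested genes in brackets and all 15319 genes in the lowest bar. Lymphatic identity genes extend mostly to the right, HEV and antigen presentation genes entirely to the left, and matrix, cytoskeleton and growth factor genes to both sides.

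Immediate early and dissociation genes were higher in D-LEC in 12 of 23 cases and in LN-BEC in 1, against 22.4% and 25.6% of all genes tested, with a median log2 fold change of 1.17. Atf3 was at 1689, 1930 and 2055 in D-LEC and 168, 153 and 420 in LN-BEC (log2 fold change 2.94 ± 0.52, and 3.54 without LN-BEC replicate 3), and the libraries did not overlap. Hspa1b, a heat shock protein, was at 962, 1206 and 965 in D-LEC and 231, 150 and 266 in LN-BEC. Jun was at 59100, 65709 and 59860 in D-LEC and 24355, 21799 and 40276 in LN-BEC. Fos and Egr1 are, like Jun, among the first genes that stimulated cells switch on. Fos was at 30232, 36690 and 36081 in D-LEC and 12238, 9113 and 23871 in LN-BEC. Egr1 was at 83065, 98693 and 92916 in D-LEC and 39955, 30938 and 50967 in LN-BEC. The libraries of Jun, Fos and Egr1 did not overlap either, but Fos and Egr1 were not called (adjusted p = 0.155 and 0.0676). Both were called higher in D-LEC by limma-voom (adjusted p = 0.0288 and 0.0127), with only the 6 libraries fitted (0.0366 and 0.000287) and without LN-LEC replicate 4 (0.0248 and 0.00116). Without LN-BEC replicate 3 and LN-LEC replicate 4, 19 of the 23 genes of the list were called higher in D-LEC and 2 in LN-BEC. The LN-LEC means were lower than both, with Jun at 18202 ± 6467 and Atf3 at 121 ± 73.1, and the part of tissue dissociation in Apold1 or other D-LEC-high genes was not tested. Among other marker sets, T cell genes were called higher in LN-BEC in 5 of 8 cases (25.6% of all genes tested), with Cd3e at 6.58 ± 10.7 in D-LEC and 109 ± 27 in LN-BEC. Cd2 went the other way at 2166, 1598 and 1658 in D-LEC and 119, 131 and 116 in LN-BEC, and with it the T cell sum was 1760 to 2360 in D-LEC and 419 to 713 in LN-BEC. Myeloid markers were not called in 6 of 7 cases, with sums of 498 to 883 in D-LEC and 348 to 513 in LN-BEC. The erythroid list had only Alas2 tested, at 26.5 in D-LEC and 44 in LN-BEC, not called (adjusted p = 0.121) but called without LN-BEC replicate 3 (0.0436).

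Many genes were level between the populations despite the difference in lineage and tissue. The 95% interval of the log2 fold change lay within 2-fold for 7080 genes (46.2%), and 2369 of these were also called, while 3247 genes were neither called nor within 2-fold. A narrower band of 1.5-fold held 4288 genes. Of 13 housekeeping genes 12 were equal within 2-fold, with a median log2 fold change of 0.101. Hprt was at 4895, 5265 and 5522 in D-LEC and 4847, 4877 and 4846 in LN-BEC. Tbp was at 1242, 1333 and 1330 in D-LEC and 1190, 1175 and 1284 in LN-BEC. The Tbp libraries of the populations interleaved, while each D-LEC library of Hprt was above the LN-BEC libraries by a small margin. The most abundant genes per kilobase within 1.5-fold included Actb at 828830 in D-LEC and 691320 in LN-BEC counts per kb, Tmsb4x at 188060 in D-LEC and 197180 in LN-BEC and Ifitm3, which has near-identical relatives, at 104060 in D-LEC and 114940 in LN-BEC. The others were Ywhae, Cst3, Srsf2, Eef1a1, Ifitm2, Mrfap1 and Malat1, with log2 fold changes from -0.21 to 0.27. The endothelial genes shared by both lineages held 12 of 24 within 2-fold, a share near that of all genes, with a median log2 fold change of -0.456, and 15 were called higher in LN-BEC (25.6% of all genes tested). Cav1 (caveolin 1) was at 38864, 44336 and 49345 in D-LEC and 53058, 48867 and 56387 in LN-BEC. S1pr1, the sphingosine 1-phosphate receptor, was at 14031, 16260 and 14822 in D-LEC and 15820, 16652 and 22306 in LN-BEC. Ramp2, a partner of the adrenomedullin receptor, was at 23535, 19391 and 23045 in D-LEC and 24447, 25188 and 27830 in LN-BEC. None of the 3 was called, though S1pr1 was called lower in D-LEC without LN-BEC replicate 1 (adjusted p = 0.0264) or without D-LEC replicate 2 (0.0494), and their intervals on the log2 scale were -0.56 to 0.04, -0.55 to -0.02 and -0.48 to 0.00. Clec14a, Esam and Mcam were exceptions at least 5-fold higher in LN-BEC. Clec14a was at 359, 360 and 726 in D-LEC and 13068, 12402 and 12109 in LN-BEC (log2 fold change -4.70 ± 0.28). Mcam was at 1486, 1891 and 2629 in D-LEC and 22336, 22731 and 19199 in LN-BEC (log2 fold change -3.42 ± 0.28). Pecam1, used in the sort, was at 30772, 35453 and 29477 in D-LEC and 88387, 93689 and 106950 in LN-BEC, with a log2 fold change of -1.60 ± 0.11.

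LN-LEC shares lineage with D-LEC and tissue with LN-BEC, and its log2 level was placed between them, with 0 at the LN-BEC level and 1 at the D-LEC level. Of the 741 genes at least 5-fold higher in D-LEC, LN-LEC lay between 0.25 and 0.75 for 307, at 0.25 or less for 275 and at 0.75 or more for 159. Of the 1589 genes at least 5-fold higher in LN-BEC, it lay in the middle range for 624, at 0.25 or less for 635 and at 0.75 or more for 330. On neither side did LN-LEC go with one of the populations throughout. Prox1, Maf, Tbx1 and Sema3a were near or beyond the D-LEC level, at positions of 1.01, 0.971, 1.01 and 1.22, with Prox1 at 8342, 8291, 8188 and 7578 in LN-LEC. Reln lay near the middle at 0.526 and Igfbp5 near LN-BEC at 0.135, with Reln at 2489, 3407, 3657 and 2568 and Igfbp5 at 2739, 2441, 2263 and 3344 in LN-LEC. Apold1 and Cd9 were at -0.016 and -0.058, level with LN-BEC, and S100a6, at -0.405, was lower in LN-LEC than in LN-BEC. Among genes higher in LN-BEC, Vwf, Notch4 and Esam were at 1.06, 1.23 and 1.08, at or beyond D-LEC, whereas B2m, Cd274 and Psmb8 were at -0.053, -0.087 and -0.056, at or beyond LN-BEC. Jam3 and Bmp2 exceeded both populations in LN-LEC, at 16637, 15711, 18132 and 14828 and 9358, 9738, 6911 and 10714. These positions rest on libraries shared with the contrast itself and are descriptions.

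**Figure D4:**
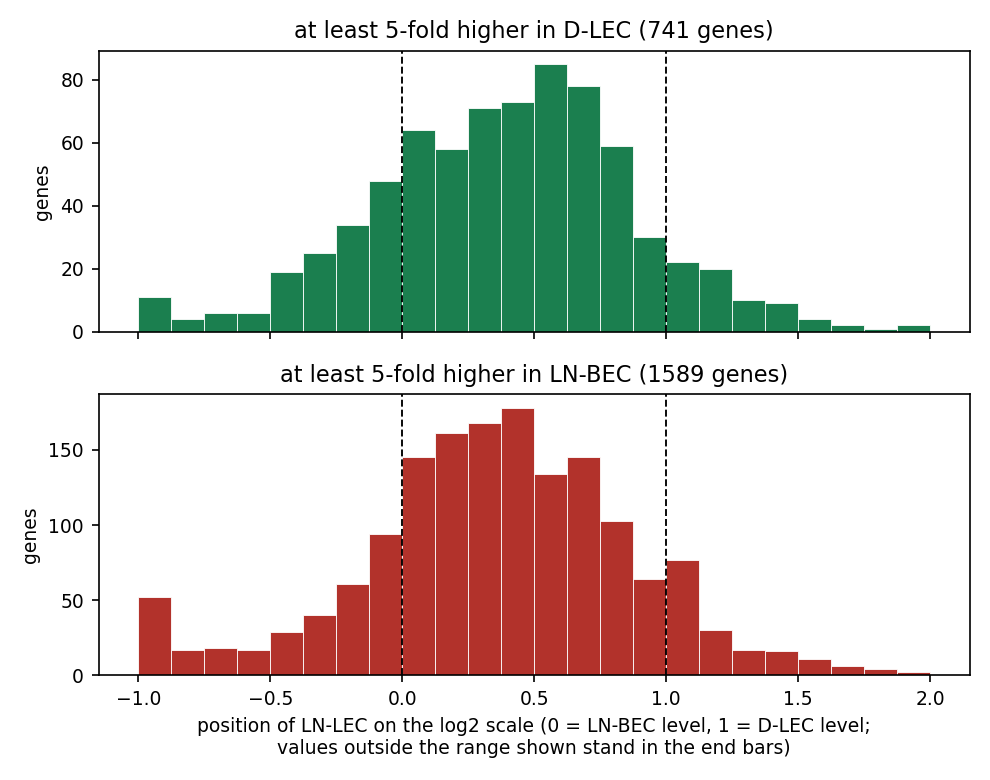
Histograms of the position of LN-LEC on the log2 scale, with 0 at the LN-BEC level and 1 at the D-LEC level, for the 741 genes at least 5-fold higher in D-LEC and the 1589 at least 5-fold higher in LN-BEC; the y axis is the number of genes. Both spread from below 0 to above 1 with most genes between, and 307 and 624 genes lie between 0.25 and 0.75.

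A small set of genes was equal in D-LEC and LN-BEC while LN-LEC lay apart. With an interval within 2-fold between D-LEC and LN-BEC and LN-LEC called at least 5-fold from both in the same direction, 23 genes had LN-LEC higher and 12 had LN-LEC lower. Since the rule picked them, their values are descriptions. Alcam (chr16:52249109-52453110), an adhesion molecule that binds CD6 on T cells, was at 560, 746 and 596 in D-LEC and 577, 488 and 1229 in LN-BEC, with a log2 fold change of -0.27 ± 0.32, and at 21748, 20895, 19955 and 16411 in LN-LEC. Cd55, which protects cells from complement, was at 3952, 4003 and 4739 in D-LEC and 3824, 3613 and 4939 in LN-BEC and at 53291, 60572, 57418 and 51065 in LN-LEC. C2, a complement protease, was at 375, 288 and 502 in D-LEC and 376, 221 and 567 in LN-BEC and at 7010, 5860, 7602 and 6088 in LN-LEC. In these 3 genes the 6 libraries of the contrast interleaved and LN-LEC stood more than 10-fold above them all. Cldn11, the claudin of myelin and testis and a lymphatic marker here, was at 559 ± 32.8 in D-LEC and 438 ± 127 in LN-BEC and at 5744 ± 485 in LN-LEC. Igf1 was at 1948 ± 367 in D-LEC and 2306 ± 533 in LN-BEC and at 14586 ± 1827 in LN-LEC. Tgfa, a ligand of the EGF receptor, was at 265 ± 118 in D-LEC and 277 ± 110 in LN-BEC and at 5799 ± 906 in LN-LEC. LN-LEC was again far above both. Cpe, carboxypeptidase E, was at 1618, 1876 and 1901 in D-LEC and 1474, 848 and 1822 in LN-BEC and at 40105, 35244, 33474 and 33355 in LN-LEC. Fzd10, a Wnt receptor, was at 47.2 ± 12.1 in D-LEC and 51 ± 32 in LN-BEC and at 1245 ± 110 in LN-LEC. Further genes of this direction were Shisa4, Bcar3, Tnni3, Arhgap42, Serp2, Colec11 and Naaa, with LN-LEC minus LN-BEC log2 differences of 3.84, 3.23, 3.04, 2.84, 2.80, 2.90 and 2.71. Without LN-BEC replicate 3, D-LEC and LN-BEC were called apart for Cldn11, Cpe and Irf8, with log2 fold changes of 0.60, 0.62 and 0.64. Naaa was called lower in D-LEC without D-LEC replicate 3 (log2 fold change -0.44, adjusted p = 0.0402).

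Among the genes that were lower in LN-LEC, Hey1, a Notch target and repressor, was at 6735, 6867 and 6023 in D-LEC and 5147, 4935 and 4984 in LN-BEC and at 323, 248, 246 and 319 in LN-LEC. Tmsb4x, thymosin beta 4, which binds actin monomers, was at 116490, 131000 and 130500 in D-LEC and 133330, 132100 and 130900 in LN-BEC and at 18292, 15726, 19284 and 19759 in LN-LEC. Capg, which caps actin filaments, was at 1380, 1450 and 1438 in D-LEC and 2003, 2420 and 2126 in LN-BEC and at 288, 240, 172 and 268 in LN-LEC. Each LN-LEC library of the 3 genes was below all 6 libraries of the contrast. Being within 2-fold did not mean that no difference was called, since Hey1, Sema6d, Capg and Filip1 were called between D-LEC and LN-BEC without overlap (adjusted p = 0.0119, 0.0119, 0.00248 and 0.00469). Dysf, dysferlin of membrane repair, was at 5199 ± 907 in D-LEC and 3833 ± 98.8 in LN-BEC and at 341 ± 97.8 in LN-LEC. Some alternatives called Dysf higher in D-LEC than in LN-BEC. These were limma-voom (adjusted p = 0.0359) and edgeR with only the 6 libraries (0.013) or without LN-LEC replicate 4 (0.0134). Sema6d, a membrane semaphorin, was at 2459 ± 105 in D-LEC and 3491 ± 379 in LN-BEC and at 251 ± 54.5 in LN-LEC, and its call between D-LEC and LN-BEC was lost without LN-BEC replicate 1 (adjusted p = 0.0556). Prex2, an activator of Rac, was at 8320 ± 1089 in D-LEC and 6851 ± 698 in LN-BEC and at 1032 ± 124 in LN-LEC. Fam65b, Afap1l2, Ccdc109b, Filip1 and Mlf1 had LN-LEC minus LN-BEC log2 differences of -3.64, -2.91, -2.73, -3.16 and -2.86. Between D-LEC and LN-BEC, edgeR called Prex2 higher in D-LEC without D-LEC replicate 1 (adjusted p = 0.0229). It called Fam65b lower in D-LEC without D-LEC replicate 2 (adjusted p = 0.0369).

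**Figure D5:**
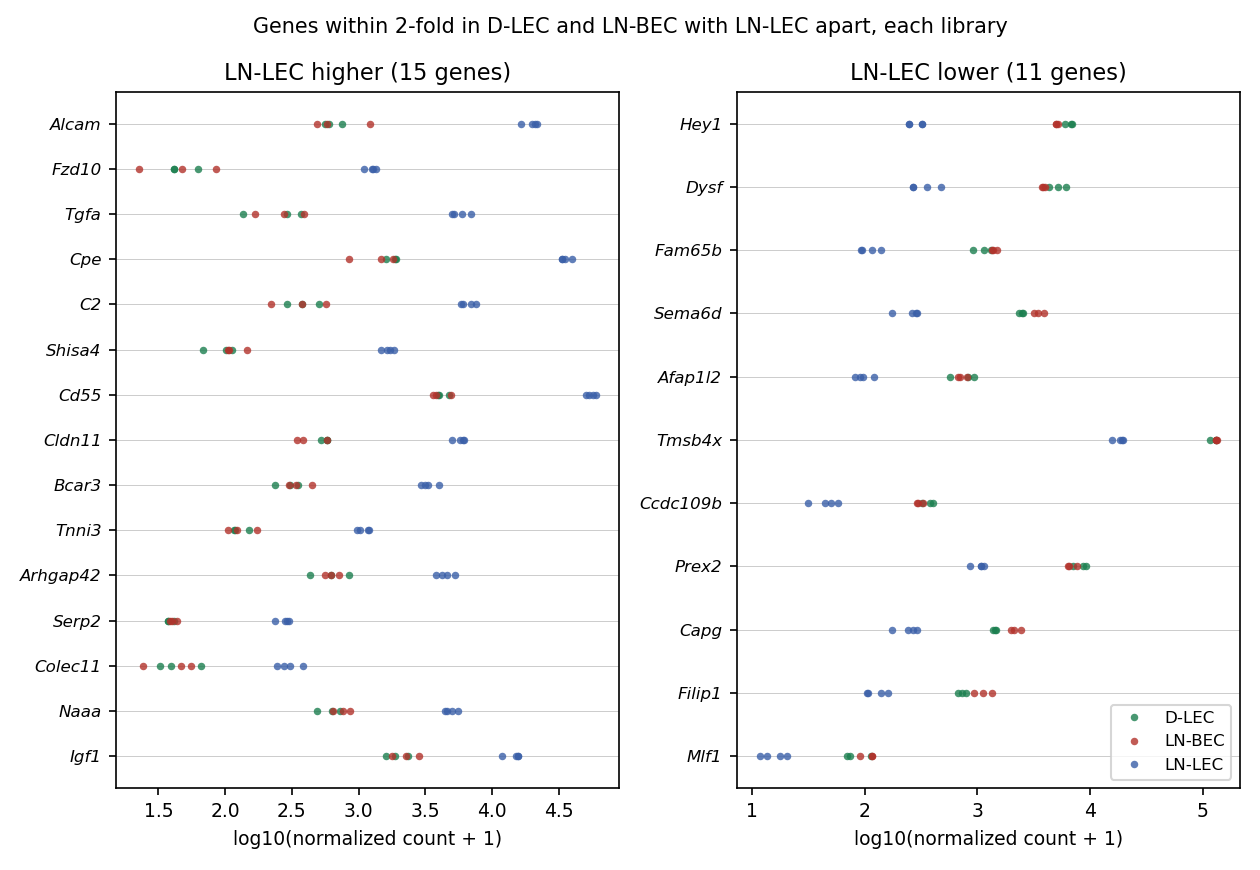
Levels in each library, as log10 of the normalized count plus 1, of the genes described in the text that were equal in D-LEC (green) and LN-BEC (red), 15 of the 23 with LN-LEC (blue) higher and 11 of the 12 with LN-LEC lower. The green and red points of each gene lie together while the blue points stand apart, above them in the former set and below them in the latter.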

How the data were processed

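RNA-seq of sorted mouse endothelial cells was analysed from 1 table of gene counts. Per the study's methods, RNA of cells pooled from several mice went through Ovation RNA-Seq System V2 amplification before 100-base paired-end sequencing, reads were aligned to mm9 with STAR, and the authors counted properly paired fragments per gene name over exons with featureCounts 1.4.4, without strand. The deposited values are raw counts, whole numbers without normalization, beside gene coordinates and exon length. Reads with several alignments were not counted, and overlapping or antisense genes cannot be told apart.

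Of 23284 entries, 3826 with unnamed symbols (Gm, Rik, LOC and clone names) were left out of the tests, and of the 19458 named genes 15319 passed a minimum mean of 1 normalized count in any population and were tested. A model of the 3 populations over all 10 libraries, which then share 1 estimate of the spread, was fitted with edgeR 4.0.16 (TMM factors, robust quasi-likelihood F-test, R 4.3.3), with Benjamini-Hochberg adjustment over all genes tested and a threshold of 0.05. Printed levels are counts divided by DESeq2 (1.42.0) size factors. Per-kilobase levels divide them by exon length and serve only to compare genes. Equal means that the 95% interval of the log2 fold change lies within 2-fold. Against a population at 0 in all libraries, the fold is a lower bound with 3 counts per library, which covers counting error only. The script was tested on simulated counts with known changes.

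Populations were taken from the labels. Named genes were those of 30 lists, in each direction the 15 with the largest fold change among called genes without overlap and with a mean of at least 100, the 10 most abundant per kilobase among 5-fold genes, up to 15 genes in each direction that were equal while LN-LEC lay apart, the 10 most abundant within 1.5-fold, and ends of ranges. Members and lists were chosen with earlier results of these data known. Of 444 distinct list genes, 7 were found by an older symbol and 2 were not found in the table. Alternatives were limma-voom (3.58.1), the DESeq2 Wald test, other scaling factors and filters, a fit of only 6 libraries, a test against 5-fold (glmTreat), unnamed symbols kept, and each library left out. The values of a few single genes are not reported here.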

Additional observations from a re-analysis of the deposited data

Results flagged for a closer look

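In the LN-LEC libraries, 75 values were compared by Dixon's test for 1 library far from the other 3, and 5 lay past its 95% critical value for 4 samples, where chance gives about 1 in 20. All 5 were values of LN-LEC replicate 4. Its Bpifa2 level was 1800000 normalized counts (ratio of gap to range 0.934), and its share of fragments on genes typical of salivary gland was 8.69% (0.943). Its Mmrn1 level of 40100 was the highest of the 4 (0.878). It also held the most fragments, 48906070 (0.901), and counts in the most table entries, 17171 (0.946). The D-LEC and LN-BEC populations have 3 libraries each and were not compared in this way.

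The unnamed symbols, left out of the tests, took at most 3.46% of the fragments of a library and at least 3.14%. With these symbols kept in the fit, 324 of 2349 were called higher in D-LEC and 499 in LN-BEC. Of the 15319 named genes tested in the main fit, 3439 (22.4%) and 3922 (25.6%) were.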

How the results depend on the processing

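The counts of called genes stayed within 1.5 times the reported ones under every alternative, from 3030 to 3452 higher in D-LEC and from 3478 to 3923 higher in LN-BEC with each library left out. With each library left out, the 5-fold counts were 678 to 791 and 1413 to 1589, the equal genes with LN-LEC higher 18 to 26 and lower 9 to 17, and the 5-fold D-LEC genes with LN-LEC above the D-LEC level 60 to 107. The highest of the last, 107 in place of 70, came without LN-BEC replicate 3, and it was 107 as well with LN-LEC replicate 4 also left out, an alternative chosen after seeing the data. Fewer genes were tested at an FPKM of at least 1, which left 469 and 921 genes at least 5-fold higher in D-LEC and LN-BEC. The stricter test against a 5-fold change (glmTreat) called 407 and 805. A band of equality of 1.5-fold left 6 genes with LN-LEC higher and 3 with LN-LEC lower, and a distance of 3-fold gave 64 and 46. No named gene that was called in the main fit or in an alternative turned its direction there. Genes called in neither were not compared in direction. Among 470 called named genes, leaving out LN-BEC replicate 3 moved the fold of 51 by over 1.5 times, and D-LEC replicates 1, 2 and 3 moved 34, 17 and 28. For genes near 0 in 1 population, depth limits the fold to a bound. No paired analysis was possible because the replicates of the populations are not tied to each other by the labels.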

Other observations

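Several gene families were picked out after their values were seen and are described only. Of 12 tested voltage-gated sodium channel genes, 7 were called higher in D-LEC (22.4% of all genes tested) and 3 in LN-BEC (25.6%). None of the 16 tested Wnt ligands was called higher in LN-BEC in the main edgeR fit (25.6% of all genes tested) and 7 were higher in D-LEC (22.4%). Wnt8b was called higher in LN-BEC by limma-voom (adjusted p = 0.0214) and by edgeR without D-LEC replicate 2 (0.0226). So was Wnt16 by edgeR without D-LEC replicate 1 (0.0405). Wnt2 was at 294, 369 and 312 in D-LEC and 4.38, 5.19 and 30.5 in LN-BEC. Its log2 fold change was 4.66, or 6.04 without LN-BEC replicate 3. Wnt9a was at 730, 634 and 973 in D-LEC and 66.5, 40.6 and 91.4 in LN-BEC. Hox genes, which record position along the body axis, were called higher in LN-BEC in 16 of 30 cases (25.6% of all genes tested) and in D-LEC in 5 (22.4%). Hoxb9 was at 1.26, 0 and 1.65 in D-LEC and 279, 362 and 221 in LN-BEC and Hoxa10 at 0, 6.01 and 0 in D-LEC and 320, 282 and 209 in LN-BEC, whereas Hoxd10 was at 406, 470 and 469 in D-LEC and 60.4, 65.7 and 122 in LN-BEC. The libraries of these 3 genes did not overlap, and a posterior Hox gene was thus found on either side.

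The guanylate-binding protein and oligoadenylate synthetase families, which interferon induces, lay mostly on the LN-BEC side, whereas Ifitm3, also inducible by interferon, was not called (log2 fold change -0.15, adjusted p = 0.254). Of 11 guanylate-binding protein genes 10 were called higher in LN-BEC (25.6% of all genes tested) and 0 higher in D-LEC (22.4%) by edgeR. Gbp4, one of several near-identical copies, was at 275, 392 and 597 in D-LEC and 7870, 7960 and 7933 in LN-BEC. Of 10 oligoadenylate synthetase genes 8 were called higher in LN-BEC (25.6% of all genes tested), with Oas2 at 8.83, 8.02 and 7.44 in D-LEC and 416, 387 and 480 in LN-BEC. TNF receptor superfamily genes were called higher in LN-BEC in 12 of 20 cases (25.6% of all genes tested), among them Tnfrsf9 at 16.4, 9.02 and 15.7 in D-LEC and 1176, 1389 and 1339 in LN-BEC and Tnfrsf26 at 26.5, 38.1 and 38.8 in D-LEC and 2950, 2782 and 2355 in LN-BEC. Each of these genes had all LN-BEC libraries above all D-LEC libraries.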
